A study of Homo sapiens with 3 samples.

Results

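The transcripts of the RAS, RAF, MEK and ERK kinase cascade were described one by one in an established human pancreatic cancer cell line, MIAPaCa-2. The members were the rows of the expression table whose symbol was NRAS, HRAS, BRAF, ARAF, MAP2K1, MAP2K2 or MAPK3, which gave 7 of the 14949 genes in the table. All 7 were found, each in 1 row. Transcripts were sequenced in 3 libraries. The first, called the control, came from cells with a control short hairpin and no drug (sh-CTL). The second, called the knockdown, came from cells with a hairpin against METTL3 and no drug (sh-METTL3). The third, called the inhibitor library, came from sh-CTL cells exposed for 24 h to 80 nM of NMS-P937, an inhibitor of PLK1 (sh-CTL + PLK1i). The METTL3 protein is the catalytic part of the RNA methyltransferase that makes N6-methyladenosine, and the PLK1 protein is a mitotic kinase. Cells of all 3 groups carried a hairpin, and whether each hairpin line was a clone or a mixed population is not given in the sources used here. Each group had 1 library, so no difference had a replicate check and no p-value was computed. Both comparisons used the same control library, so an error in it would enter both.

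RAS proteins are small GTPases at the inner face of the plasma membrane that receptors switch on. Active RAS recruits RAF kinases, RAF phosphorylates the MEK kinases, and MEK phosphorylates the ERK kinases, which then act on many nuclear and cytoplasmic substrates. The cascade is best known in the pancreas because activating RAS mutations are frequent in pancreatic adenocarcinoma. Its activity is set mainly by GTP loading and phosphorylation, and neither is measured by transcript level. NRAS and HRAS encode RAS GTPases, BRAF and ARAF encode RAF kinases, MAP2K1 and MAP2K2 encode MEK1 and MEK2, and MAPK3 encodes ERK1.

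The METTL3 enzyme prefers adenosines in short contexts of which GGACT, written as DNA, is a common form. Because the knockdown targets this enzyme, a GGACT of the coding sequence was read with 10 bases on either side for each member, where present. It was the last match whose window stayed within the coding sequence and crossed no exon junction. Each 25-base window is given 5′ to 3′ on the transcript strand, with GGACT in capitals.
NRAS: agtgatgatgGGACTcagggttgta
HRAS: aacgggtgaaGGACTcggatgacgt
BRAF: ttggtagacgGGACTcgagtgatga
ARAF: tggggtaccgGGACTcaggctatta
MAP2K1: ctggagcatgGGACTgtctctggta
MAP2K2: ttgaactcctGGACTatattgtgaa
All 6 windows are exonic and coding. On GRCh37 the NRAS window lies at chr1:115251182-115251206 on the minus strand in exon 5, and the HRAS window at chr11:533577-533601 on the minus strand in exon 4. The BRAF window lies at chr7:140481462-140481486 on the minus strand in exon 11. The ARAF window lies at chrX:47426636-47426660 on the plus strand in exon 10. The MAP2K1 window lies at chr15:66777372-66777396 on the plus strand in exon 7, and the MAP2K2 window at chr19:4097281-4097305 on the minus strand in exon 8. The MAPK3 coding sequence held no GGACT. Methylation was not measured in these libraries, and a match is only a match of letters.

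The reads in listed genes came to 37449329 in the control, 46944898 in the knockdown and 47727520 in the inhibitor library. METTL3 itself had 3378, 1781 and 4223 reads in that order, which left 41.9% of the control level in the knockdown (log2 change -1.25, 95% interval -1.34 to -1.17). PLK1 had a log2 change of -0.62 in the knockdown and 0.08 in the inhibitor library. The labels call the cells epithelial. KRT8, KRT18 and KRT19 were abundant (summed normalized count 151510, 182424 and 141582), whereas EPCAM, CDH1 and KRT7 were not listed in the table. Of 3 mesenchymal markers, VIM and ZEB1 were listed and CDH2 was not. Their summed normalized count of 247681 in the control, 188683 in the knockdown and 250261 in the inhibitor library was nearly all VIM, and ZEB1 had 2927, 3478 and 3838. Of the markers of other pancreatic cells, 0 of 4 acinar and 0 of 2 endothelial genes were listed. Of 4 fibroblast markers, 2 were listed (summed 654, 48.2 and 412), and of 3 immune markers only CD68 was listed (1755, 3243 and 2647). In the knockdown, VIM and the fibroblast markers were lower than in the control and the 3 keratins, ZEB1 and CD68 were higher, and their part in the changes below was not tested.

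All 7 cascade transcripts were well expressed in every library. Levels are given as normalized counts, which are reads divided by the size factor of the library. HRAS was the least abundant by count, at the percentile 60.9 of mean level over all genes in the table, and MAP2K2 the most abundant, at the percentile 92.3. Divided by the length of the canonical transcript, MAP2K2 was highest in all 3 libraries, at 4347 normalized counts per kb in the control, 4982 in the knockdown and 3812 in the inhibitor library. BRAF was lowest, at 381, 392 and 425 per kb, and MAP2K1 was next, at 839, 765 and 935. The other 4 genes lay close together, from 1364 (NRAS) to 1502 (HRAS) per kb in the control, and their order was not the same in each library. HRAS led these 4 in the control and the knockdown and was last of them in the inhibitor library. In the knockdown its lead over NRAS (1311 against 1284) lay within counting error, and ARAF (1220) and MAPK3 (1219) were level. With the length of all annotated exons of the gene in place of the canonical transcript, NRAS was highest, at 1364 per kb in the control beside 967 for MAP2K2. HRAS was then the lowest of NRAS, HRAS, ARAF and MAPK3 in every library, at 661, 577 and 587 per kb. The top of the order and the place of HRAS therefore depended on the transcript assumed. MAP2K1 and BRAF remained the lowest pair under both lengths, at 331 and 105 per kb of all exons in the control.

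**Figure D1:**
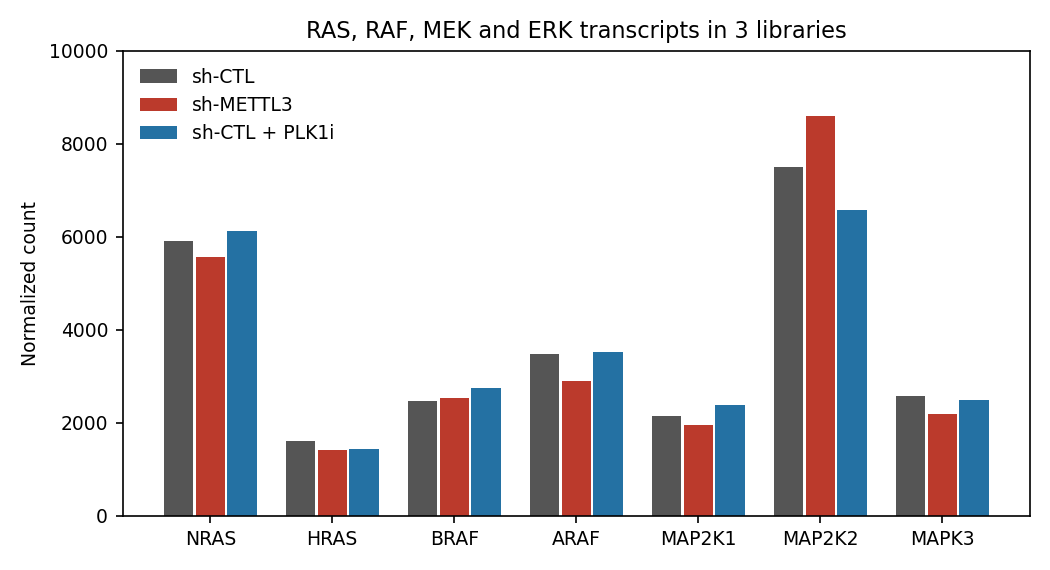
Normalized counts of the 7 transcripts, with 1 bar per library (control, knockdown and inhibitor library, labelled sh-CTL, sh-METTL3 and sh-CTL + PLK1i) and no error bar because each group had 1 library. MAP2K2 and NRAS were the tallest in each library, and the 3 bars of a gene differ by at most 1.31 times (MAP2K2).

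The RAS genes were both lower in the knockdown, and by little. NRAS (ENSG00000213281; GRCh37 chromosome 1, 115247090 to 115259392, minus strand) had 5061 reads in the control, 5993 in the knockdown and 6656 in the inhibitor library, or normalized counts of 5902, 5555 and 6128. It was highest after PLK1 inhibition and lowest in the knockdown, and its 3 levels lay within 1.10 times of each other. The log2 change was -0.09 in the knockdown (95% interval -0.14 to -0.03) and 0.05 in the inhibitor library (0.00 to 0.11), the latter at the edge of counting error. A change is the difference of log2(normalized count + 1) between 2 libraries. Its interval is the exact Clopper-Pearson 95% interval of their read counts, which covers counting error only and compares the libraries, not the conditions.

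HRAS (ENSG00000174775; chromosome 11, 532242 to 537321, minus strand) had 1378, 1513 and 1550 reads in the same order of libraries, or normalized counts of 1607, 1402 and 1427. It was the only member that was lower than the control beyond counting error in both other libraries. Its log2 change was -0.20 in the knockdown (-0.30 to -0.09) and -0.17 in the inhibitor library (-0.28 to -0.07). The last 2 libraries could not be told apart at this depth, with a log2 difference of -0.03 (the knockdown against the inhibitor library, -0.13 to 0.08).

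The RAF genes differed from each other in both comparisons. ARAF (ENSG00000078061; chromosome X, 47420604 to 47431307, plus strand), which encodes the RAF kinase with the weakest catalytic activity, had 2984 reads in the control, 3129 in the knockdown and 3819 in the inhibitor library, or normalized counts of 3480, 2900 and 3516. It was lower in the knockdown than in both other libraries, which did not differ from each other beyond counting error. The log2 change was -0.26 in the knockdown (-0.34 to -0.19), or 83.3% of the control, and 0.01 in the inhibitor library (-0.05 to 0.08). This was the lowest value of the 7 in the knockdown, close to that of MAPK3, whose interval overlapped.

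BRAF (ENSG00000157764; chromosome 7, 140419127 to 140624729, minus strand), which encodes the RAF kinase with the strongest catalytic activity, had 2113, 2730 and 2984 reads, or normalized counts of 2464, 2530 and 2747. It was highest after PLK1 inhibition, and the knockdown and the control did not differ beyond counting error. BRAF had a log2 change of 0.04 in the knockdown (-0.04 to 0.12) and 0.16 in the inhibitor library (0.08 to 0.24), the latter 111% of the control.

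The MEK genes moved in opposite directions. MAP2K1 (ENSG00000169032; chromosome 15, 66679175 to 66783994, plus strand) had 1833 reads in the control, 2103 in the knockdown and 2587 in the inhibitor library, or normalized counts of 2137, 1949 and 2382. It was lowest in the knockdown and highest after PLK1 inhibition. The log2 change was -0.13 in the knockdown (-0.22 to -0.04) and 0.16 in the inhibitor library (0.07 to 0.24).

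MAP2K2 (ENSG00000126934; chromosome 19, 4090319 to 4124119, minus strand) had 6438, 9282 and 7151 reads, or normalized counts of 7507, 8603 and 6583. Its order was the reverse of that of MAP2K1, with the knockdown highest and PLK1 inhibition lowest. MAP2K2 had a log2 change of 0.20 in the knockdown (0.15 to 0.24) and -0.19 in the inhibitor library (-0.24 to -0.14). Set directly against the inhibitor library, a contrast that does not use the control library, the knockdown had a log2 difference of 0.39 for MAP2K2 (0.34 to 0.43) and -0.29 for MAP2K1 (-0.37 to -0.21). MAP2K2 was the only member above the control beyond counting error in the knockdown.

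The ERK gene MAPK3 (ENSG00000102882; chromosome 16, 30125426 to 30134827, minus strand) had 2212 reads in the control, 2350 in the knockdown and 2692 in the inhibitor library, or normalized counts of 2579, 2178 and 2478. It was lowest in the knockdown, and the other libraries did not differ beyond counting error. MAPK3 had a log2 change of -0.24 in the knockdown (-0.33 to -0.16), or 84.4% of the control, and -0.06 in the inhibitor library (-0.14 to 0.02). Because the libraries are bulk RNA, a lower transcript level per cell and fewer cells that carry the transcript cannot be told apart.

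**Figure D2:**
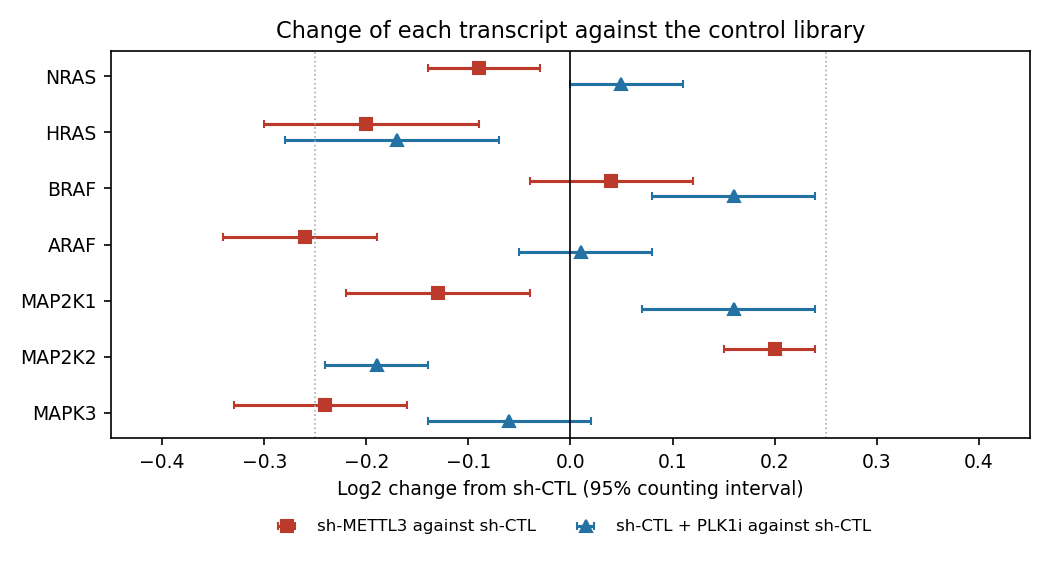
Log2 change of each transcript from the control (x axis) with its 95% counting interval; squares are the knockdown, triangles are the inhibitor library, and dotted lines mark a change of 0.25. In the knockdown the points run from -0.26 (ARAF) to 0.20 (MAP2K2), and in the inhibitor library from -0.19 (MAP2K2) to 0.16 (BRAF and MAP2K1).

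No member reached a log2 change of 1 in size, which 6.37% of all genes did in the knockdown and 2.52% did in the inhibitor library. Such changes were rarer among well expressed genes: of 9074 genes whose mean normalized count was 500 or more, a floor that all members pass, 1.39% and 0.110% reached it. A lower limit of 0.25, about 1.19-fold, was also used. In the knockdown, 1 of 7 members (ARAF) was lower by that much, where 19.1% of all genes were lower, and 0 of 7 were higher, where 19.9% of all genes were higher. Of the 9074 genes, 14.3% were lower and 10.4% higher by that much. ARAF passed this limit narrowly, and MAPK3 missed it narrowly. With upper-quartile size factors the ARAF change was -0.24 and did not pass. In the inhibitor library, 0 of 7 members were 0.25 higher or lower, where 14.2% and 15.4% of all genes and 7.15% and 7.52% of the 9074 genes were. The median change of the members was -0.13 in the knockdown and 0.01 in the inhibitor library, and that of all genes was 0.00 in both.

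In size, 4 of the 7 changes in each comparison exceeded the median of the well expressed genes. By definition about as many genes lie above a median as below it, so this count is not particular to the members. Of the 9074 genes, 23.0% moved at least as far as ARAF in the knockdown, 25.9% as far as MAPK3, 34.1% as far as MAP2K2 and 34.2% as far as HRAS. The shares were 50.3% for MAP2K1, 65.9% for NRAS and 84.7% for BRAF. In the inhibitor library, the shares were 25.4% for MAP2K2, 29.5% for HRAS, 33.2% for BRAF and 33.4% for MAP2K1, and 70.8% for MAPK3, 72.5% for NRAS and 92.0% for ARAF.

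The balance between paralogs was then compared inside each library, where no scaling between libraries enters. MAP2K2 had 5.18 times the reads per kb of MAP2K1 in the control, 6.51 times in the knockdown and 4.08 times in the inhibitor library. On the log2 scale these ratios were 2.37 (2.30 to 2.45), 2.70 (2.63 to 2.77) and 2.03 (1.96 to 2.09), and the 3 intervals did not overlap. The ratio moved from the control by 0.33 in the knockdown (0.23 to 0.43) and by -0.35 in the inhibitor library (-0.44 to -0.25). Between the knockdown and the inhibitor library it differed by 0.68 (0.58 to 0.77), or 1.60-fold, which was the widest shift of any pair.

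ARAF had 3.84 times the reads per kb of BRAF in the control, 3.11 times in the knockdown and 3.48 times in the inhibitor library. The log2 ratio moved by -0.30 in the knockdown (-0.41 to -0.19) and by -0.14 in the inhibitor library (-0.25 to -0.04), so ARAF was less dominant over BRAF in both. HRAS and NRAS were near parity per kb, with a log2 ratio of 0.14 in the control (0.05 to 0.22), 0.03 in the knockdown (-0.05 to 0.11) and -0.09 in the inhibitor library (-0.17 to -0.01). This ratio moved by -0.11 in the knockdown (-0.23 to 0.01), which counting error covers, and by -0.23 in the inhibitor library (-0.34 to -0.11). The ratios themselves depended on the transcript length used. The shifts between libraries, whose intervals come from the counting variances, did not, because the length cancels.

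**Figure D3:**
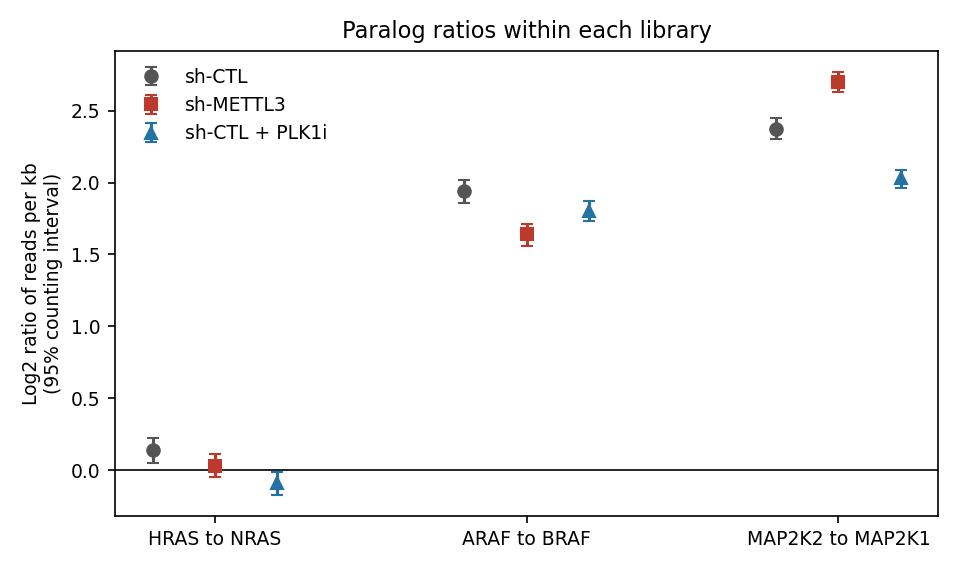
Log2 ratio of reads per kb of canonical transcript (y axis) for 3 pairs of paralogs in each library, with 95% counting intervals. For MAP2K2 to MAP2K1 the points are separate, at 2.37 in the control, 2.70 in the knockdown and 2.03 in the inhibitor library.

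The members lie on 7 different chromosomes, so their neighbours were examined for shifts shared by a region. In the knockdown, BRAF was above the median of its surroundings. The 632 genes of chromosome 7 whose mean normalized count was 50 or more had a median change of -0.25, and the 24 nearest such genes had a median of -0.16, whereas BRAF had 0.04. Of these 24 neighbours, 15 had a lower value than BRAF and 9 a higher one. ARAF, at -0.26, was close to its 24 neighbours on chromosome X (median -0.21), although the whole chromosome had a median of -0.04. In place of 12 genes on either side, the median beside ARAF was -0.11 with 6 and -0.23 with 25, so this closeness was weaker only in the narrowest window. MAP2K2, at 0.20, lay between the medians of its 24 neighbours (0.12) and of the 6 genes on either side (0.26) on chromosome 19.

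MAPK3, at -0.24, was below its neighbourhood on chromosome 16 (median -0.05), with 4 of 24 neighbours lower and 20 higher. NRAS, HRAS and MAP2K1 were also below the medians of their neighbours (0.03, -0.07 and 0.05), with 9, 7 and 5 of 24 neighbours lower than the member. In the inhibitor library, HRAS, at -0.17, was close to its 24 neighbours on chromosome 11 (median -0.20). The neighbours of the other 6 members had medians between -0.03 and 0.03. Of 24 neighbours, 21 had a lower value than MAP2K1 and 17 a lower value than BRAF (both 0.16), and 5 were lower than MAP2K2 (-0.19). For NRAS, ARAF and MAPK3, 17, 15 and 11 of 24 were lower than the member.

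**Figure D4:**
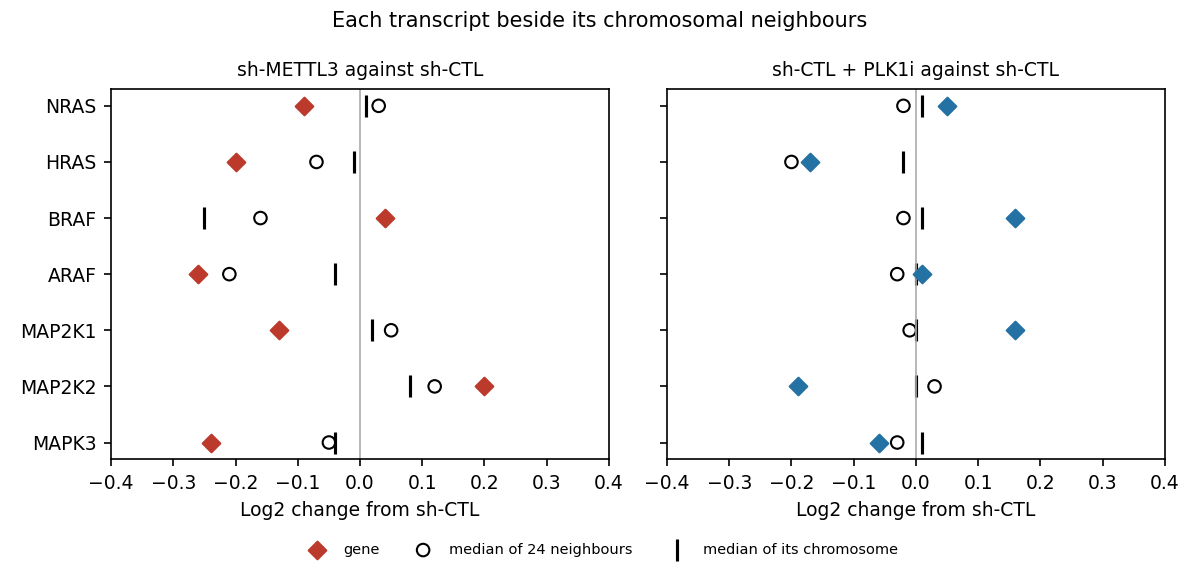
Log2 change of each transcript (filled diamonds), the median of its 24 nearest expressed genes (open circles) and the median of its chromosome (bars), for the knockdown on the left and the inhibitor library on the right. In the knockdown, BRAF (0.04) lies right of both of its medians (-0.16 and -0.25).

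The members were not alike in sequence. Canonical transcripts ranged from 1070 bases (HRAS) to 6459 bases (BRAF). Their GC content was 37.4% for NRAS and 41.1% for BRAF, below the lower quartile of all matched genes (42.1%). It was 59.0% for ARAF, 61.0% for MAPK3, 64.3% for HRAS and 65.4% for MAP2K2, above the upper quartile (56.7%), and 51.2% for MAP2K1. GGACT occurred 2.10 times per kb in ARAF and 1.57 times in MAP2K1, above the upper quartile of all genes (1.41). It occurred 0.462 times per kb in NRAS, below the lower quartile (0.524), and 0.560 times in MAPK3, while HRAS, BRAF and MAP2K2 also lay between the quartiles. ARAF held 5 matches, of which 4 were in the coding sequence, and MAPK3 held 1, outside it.

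The promoters also differed. For each gene, the 250 bases before its most upstream listed RefSeq start on GRCh38.p14 were read. Whether that start is the one of the canonical transcript was not checked, so the counts, including those of BRAF, may not describe the main promoter. The GC box (GGGCGG or its reverse complement CCGCCC) occurred 6 times in MAPK3, 3 times in HRAS and MAP2K1, and 2 times in NRAS and MAP2K2. It occurred 0 times in BRAF and ARAF. Of 35116 promoters, counting every listed start of a gene, 42.6% held at least 1. TATAAA on either strand was in none of the 7 and in 10.7% of all promoters. CCAAT on either strand was in HRAS, BRAF, ARAF and MAP2K1 and in 32.0% of all promoters, and the ETS core CCGGAAG, also searched on both strands, was in HRAS only and in 8.52% of all promoters. None of the searched motifs contains another.

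For 3 members, reads could be shared with an overlapping gene on the opposite strand. Overlaps are of annotated gene spans, introns included. BRAF overlapped NDUFB2, a respiratory chain gene, by 3464 bases. NDUFB2 had 2559 reads in the control, 3193 in the knockdown and 3400 in the inhibitor library, more than BRAF in each. Its log2 changes were -0.01 in the knockdown and 0.07 in the inhibitor library. MAP2K1 overlapped SNAPC5 by 1522 bases. SNAPC5 had 517, 509 and 756 reads in the control, the knockdown and the inhibitor library, fewer than MAP2K1 in each. Its log2 changes of -0.35 and 0.21 had the same signs as those of MAP2K1. Whether shared reads entered the member changes was not tested. ARAF overlapped SYN1 by 8 bases, and SYN1 had at most 44 reads. The library kit keeps the strand, but whether counting used it is not given in the sources used here. The annotation named 5 pseudogenes after members, and 0 of them had a row in the table.

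Genes that act around the cascade were described with 8 lists, which together held 132 genes, of which 125 were in the table. In the knockdown, 22 of the 125 (17.6%) were at least 0.25 higher and 28 (22.4%) at least 0.25 lower, beside 19.9% and 19.1% of all genes. In the inhibitor library, 17 (13.6%) were higher and 13 (10.4%) lower, beside 14.2% and 15.4% of all genes.

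Upstream of RAS, 2 of 9 activators and adaptors were at least 0.25 higher in the knockdown (22.2%, beside 19.9% of all genes) and 0 lower. They were RASGRP3, an exchange factor that loads RAS with GTP (0.82, 0.36 to 1.32), and the docking protein GAB1 (0.26, -0.07 to 0.60). The interval of GAB1 included 0, and RASGRP3 had few reads (55, 123 and 100 in the control, the knockdown and the inhibitor library). With PLK1i, RASGRP3 (0.51) and the docking protein FRS2 (0.39) were higher, and the exchange factor SOS2 (-0.29) and GAB1 (-0.34, -0.71 to 0.03) were lower. Of 10 RAS GTPase-activating proteins and their partners, which switch RAS off, 4 were at least 0.25 lower in the knockdown and 0 higher. The share lower was 40.0%, beside 19.1% of all genes, and 0 moved that far in the inhibitor library. RASAL2, a GTPase-activating protein, had 3567, 3256 and 5367 reads and a change of -0.46 in the knockdown (-0.53 to -0.39), and SPRED3 had -0.53 (-0.78 to -0.28).

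Of 12 genes for the lipid modification, transport and turnover of RAS, 2 were higher in the knockdown (16.7%, beside 19.9% of all genes). They were PDE6D (0.33), which carries prenylated RAS through the cytosol, and ABHD17A (0.28), which removes palmitate. With PLK1i, ZDHHC9, which adds palmitate to RAS, had 0.32, and LYPLA2 had -0.42. Of 22 RAF regulators and scaffolds, 3 were higher and 4 lower in the knockdown (13.6% and 18.2%, beside 19.9% and 19.1% of all genes). KSR1, a scaffold of RAF and MEK, had 0.30, and CDC37, the kinase co-chaperone, had 0.25. YWHAG, a phosphoserine-binding adaptor of RAF, was abundant, with 28468, 22825 and 35422 reads and a change of -0.65 (-0.68 to -0.62). It lies on chromosome 7, whose median was -0.25. LAMTOR3, a MEK scaffold at the lysosome, had -0.48. With PLK1i, 3 of the 22 were higher (13.6%, beside 14.2% of all genes) and 0 lower. The rises were led by PEA15 (0.38), which binds ERK in the cytoplasm, and YWHAH (0.30).

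Of 14 kinases and factors that ERK phosphorylates, 5 were at least 0.25 higher and 6 lower in the knockdown. These were 35.7% and 42.9%, beside 19.9% and 19.1% of all genes. In the inhibitor library 1 was higher and 3 lower (7.14% and 21.4%, beside 14.2% and 15.4%). ETS1, a transcription factor, had 2157 reads in the control, 4613 in the knockdown and 3645 in the inhibitor library, and changes of 0.77 and 0.42. MKNK2, a kinase of the translation factor eIF4E, had 0.56 and -0.27. ETS2 (-0.62) and ELK3 (-0.52) were lower in the knockdown, and CIC, a repressor that ERK signalling releases, had -0.31 in the inhibitor library.

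Of 22 ERK feedback and transcriptional targets, 5 were at least 0.25 higher and 5 lower in the knockdown. Each was 22.7%, beside 19.9% and 19.1% of all genes. In the inhibitor library, 10 were higher (45.5%, beside 14.2% of all genes) and 3 were lower, with a median change of 0.21. EGR1, an immediate early factor, had 1754 reads in the control, 2341 in the knockdown and 5248 in the inhibitor library, and a change of 1.24 in the latter (1.16 to 1.32). FOS had 244, 486 and 638 reads, and changes of 0.66 and 1.04. These early genes are induced by several pathways besides ERK. DUSP6, the cytoplasmic ERK phosphatase and a feedback gene of the cascade, had 89, 251 and 128 reads and a change of 1.16 in the knockdown (0.81 to 1.53). The feedback inhibitor SPRY1 (-0.69) and the ETS factor ETV1 (-0.67) were lower in the inhibitor library. In the knockdown IER3 (-0.76) and the nuclear phosphatase DUSP2 (-0.59) were lower. Both libraries held rises and falls in this list, but not to the same extent. In the inhibitor library it leaned upwards, and the share lower was 13.6%, beside 15.4% of all genes. In the knockdown rises and falls were equal in number and the median change was 0.08. The cascade transcripts above the list changed by at most 0.26.

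**Figure D5:**
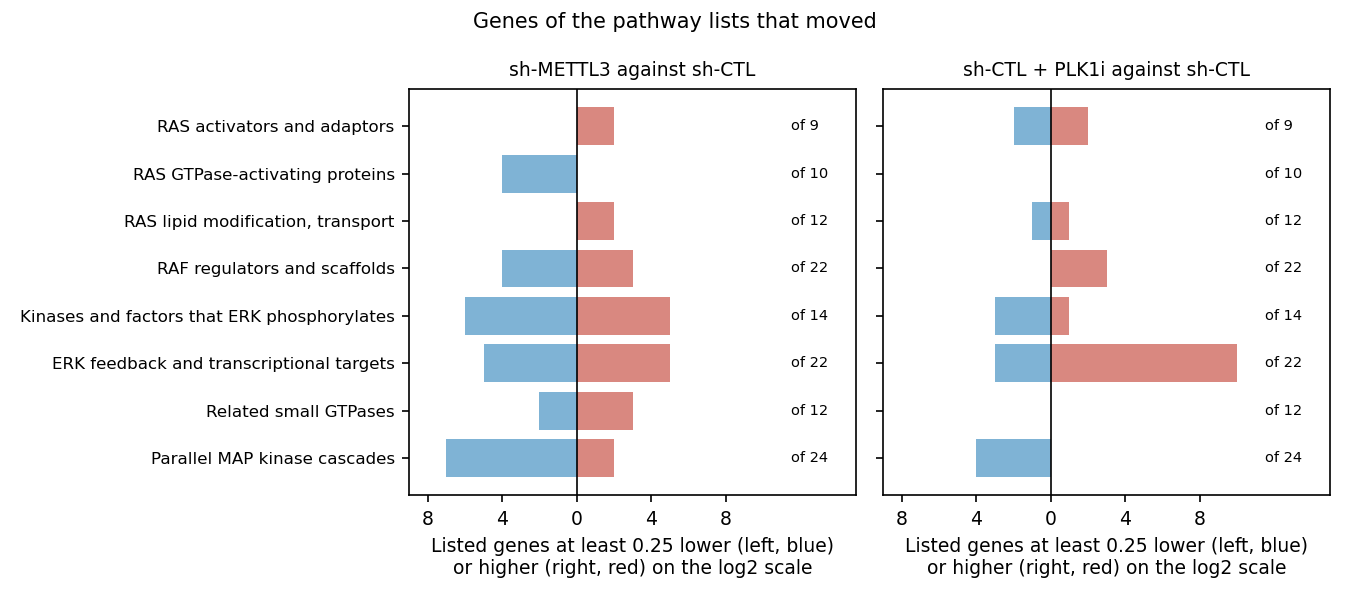
Number of listed genes (x axis) that were at least 0.25 lower (left of 0) or higher (right of 0) on the log2 scale in each of 8 lists, with the number in the table at the right, for both comparisons. The longest bar is the 10 of 22 ERK feedback and transcriptional targets that were higher in the inhibitor library.

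For each member, the gene of the members and lists with the most similar pair of changes was found, as the Euclidean distance between the 2 log2 changes over 3 libraries. BRAF was nearest to SPRED2 (distance 0.0174), a partner of a RAS GTPase-activating protein, with changes of 0.02 and 0.16 beside 0.04 and 0.16. ARAF and MAPK3 were both nearest to MAP3K4 (0.0216 and 0.0643), and MAP2K2 to MAP3K1 (0.0411). HRAS was nearest to MRAS (0.0486), NRAS to SHOC2 (0.0509) and MAP2K1 to CUL3 (0.0338). Such distances were common: between 20 (BRAF) and 359 (NRAS) of 10782 genes whose mean normalized count was 200 or more lay at least as near to the member.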

How the data were processed

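RNA was sequenced from 1 library per group, with a stranded poly(A) kit. The authors deposited log2 expression values for 14949 genes. Their low values followed log2(reads divided by a size factor, plus 4), and undoing this gave whole reads (tolerance 0.1) for 100% of values under 2000 reads, with size factors of 0.858 (sh-CTL), 1.08 (sh-METTL3) and 1.09 (PLK1i). The normalization was inferred from the values. The submitters' processing notes name hg19, FastQC 0.11.9, STAR 2.7.10 and RSEM 1.3.3, with no role stated. The highest library of each listed gene reached 0.503 CPM or more, and genes below that were not analysed here.

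Changes were differences of log2(normalized count + 1), computed with Python 3.11.15, numpy 2.4.6, pandas 2.3.3 and scipy 1.17.1. The added 1 pulls changes of low counts towards 0. A mean normalized count of at least 1 was required, which removed no gene. Intervals of 95% were exact Clopper-Pearson intervals of 2 libraries' reads, scaled by the size factors. Amplified reads are not independent molecules, so they cover counting error only. The interval step was run on reads simulated with counting error alone. Such reads match what the interval assumes, so the run could not measure variation between cultures. Positions, transcripts, GC content and GGACT counts came from GENCODE 44 on GRCh37, in which 14858 genes were found (14789 with a sequence), and promoters from RefSeq. Groups and columns were assigned from the sample titles. Named genes were the 7 members, METTL3 and PLK1, up to 2 genes that rose and 2 that fell most in each list (mean of at least 50, change of at least 0.25), the nearest gene of each member, and overlapping genes. The members and lists were chosen with earlier results of these data known. Other paralogs of these genes are not reported here. Alternatives were other size factors, pseudocounts, filters on low values, thresholds, transcript lengths and chromosome medians.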

Additional observations from a re-analysis of the deposited data

How the results depend on the processing

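The 84 member changes computed under other size factors or pseudocounts moved by at most 0.02. Part of this was fixed in advance. Median-of-ratios factors equalled the size factors already used (0.858, 1.08 and 1.09), and the pseudocounts of 0.5 and 4 are small beside the members' counts. Only the other scalings could have moved the values. With the median of its chromosome removed, the knockdown change was 0.28 for BRAF and 0.12 for MAP2K2. With lengths of all exons in place of canonical transcripts, the log2 ratio of HRAS to NRAS was -1.05, -1.15 and -1.27 in the control, the knockdown and the inhibitor library, which reversed the first, that of ARAF to BRAF was 3.28, 2.98 and 3.14, and that of MAP2K2 to MAP2K1 was 1.55, 1.88 and 1.20. At a limit of 0.5, 10 listed genes were higher and 10 lower in the knockdown, and 9 higher and 5 lower in the inhibitor library. With a mean of at least 200, 2 listed genes changed by at least 1 in the knockdown. Among all genes, those changed by at least 1 fell to 480 and 234 in the knockdown and to 89 and 26 in the inhibitor library at mean minimums of 50 and 200, and the cause was not tested. At 200, 1411 were 0.25 higher and 1675 lower in the knockdown, and 903 higher and 1004 lower in the inhibitor library. Medians of neighbours moved with the window, but all 28 alternatives stayed inside the interval of the median with 12 genes on either side. With 6 or 25 genes on either side in place of 12, those that changed sign in the knockdown were HRAS (0.02 with 6), MAP2K1 (-0.07 with 6 and -0.01 with 25) and NRAS (-0.03 with 25), and in the inhibitor library BRAF (0.06 with 6), NRAS (0.03 with 25) and MAP2K1 (0.01 with 25). With 6, MAPK3 had -0.12 and -0.13.

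No paired analysis was possible because each group had 1 library, and leaving out a library would remove a comparison. Each condition and its single library cannot be told apart, and the variation between cultures was not measured. Shifts inside a member's counting interval were not detectable at this depth.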

Other observations

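Among 12 small GTPases related to RAS, 3 were at least 0.25 higher and 2 lower in the knockdown, and 0 moved that far in the inhibitor library. RALB, a GTPase switched on by exchange factors that RAS binds, had 2998 reads in the control, 7555 in the knockdown and 3978 in the inhibitor library, or normalized counts of 3496, 7003 and 3662, with a 95% interval of the log2 change in the knockdown of 0.94 to 1.06. Its close paralog RALA, on chromosome 7 (median -0.25), had -0.38 (-0.46 to -0.30). RAP2A had 0.51 and RAP2C had -0.31.

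Among 24 genes of the parallel MAP kinase cascades, 2 were higher and 7 lower in the knockdown. These were 8.33% and 29.2%, beside 19.9% and 19.1% of all genes. In the inhibitor library 0 were higher and 4 lower (16.7% lower, beside 15.4% of all genes). MAP3K5, the stress kinase ASK1, had 52, 1075 and 41 reads and a change of 4.02 in the knockdown (3.64 to 4.47) and -0.67 in the inhibitor library (-1.31 to -0.07). MAP2K7 had 0.37 in the knockdown, whereas TAOK3 had -0.98 and MAPK6 had -0.60, and TAOK3 had -0.36 in the inhibitor library.

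Of the 125 listed genes in the table, 4 changed by at least 1 in the knockdown and 3 in the inhibitor library. Besides RALB, MAP3K5, DUSP6, EGR1 and FOS, these were DUSP4 (9, 29 and 19 reads, 1.28 in the knockdown, 0.24 to 2.62) and MAP2K6 (26, 16 and 10 reads, -1.62 in the inhibitor library, -2.94 to -0.62), both with few reads and named after their values were seen.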
